A study of Mus musculus with 12 samples.

Results

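The transcripts of the mitochondrial genome were examined in RAW264.7 cells, a mouse macrophage line. Members were chosen by name alone: a gene of the count table belonged if its mouse symbol starts with mt-. This gave 37 of the 32688 genes listed, made up of 13 protein-coding RNAs (mRNAs), 2 ribosomal RNAs (rRNAs) and 22 transfer RNAs (tRNAs). Total RNA depleted of ribosomal RNA was sequenced from 4 groups of 3 libraries each. The labels give the genotype of the comparison line only as Null, which is taken here as the line that the methods call wild type. Null control cells received no drug according to the labels, or DMSO according to the methods. Null etoposide cells were given 100 µM etoposide, a topoisomerase II poison that breaks DNA, for 8 h. DKO control and DKO etoposide cells were handled likewise but are described as knockouts of both TFEB and TFE3, a pair of related transcription factors that drive lysosomal genes, after CRISPR editing. Null and DKO are each 1 line, so a difference between them cannot be told apart from a difference between any 2 lines. The study calls the etoposide libraries of each line independent samples, but whether the libraries of a group came from separate cultures is not stated in the sources used here, so that p-values measure the spread between these libraries, which may be technical in part. A pair of RNA isolation kits is named without saying which library each was used for.

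The mouse mitochondrial genome is a small circle that encodes core subunits of respiratory complexes I, III and IV and of ATP synthase, together with the rRNAs and tRNAs used to translate them. Both strands are transcribed into long precursors by the RNA polymerase Polrmt with the help of Tfam and Tfb2m. Most mRNAs and rRNAs are flanked by tRNAs, and cutting the tRNAs out releases the mature RNAs. The level of each RNA then depends on its own stability and not only on how often the genome is copied into RNA. In macrophages, respiration supplied by these genes changes with the state of activation.

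A part of the nuclear genome repeats a stretch of the mitochondrial genome almost letter for letter, and this bears on which members can be measured. In the GRCm38 assembly with GENCODE M21 gene models, 7 annotated pseudogenes on the minus strand of chromosome 1, from chr1:24611535-24616197, followed the same order as chrM:6390-11042, a stretch of 4653 bases. mt-Co2, a catalytic subunit of complex IV, matched its copy Gm28661 over 681 of its 684 bases with 0 mismatches. mt-Atp6 matched Gm10925 over 678 bases and mt-Co3 matched Gm28437 over 783 bases, also with 0 mismatches. The 2 substitutions found in the 7 matched pairs are shown in capitals below, 5′ to 3′ on the strand of the gene. Within the matched bases these are the only letters that differ. Pairs without a substitution still had uniquely placed reads at both locations, and what placed those reads was not tested. Positions are counted from 1 at the 5′ end of the mitochondrial gene, and the mitochondrial base comes first: A1066T separates mt-Co1 from Gm29216, and T3C separates mt-Nd3 from Gm28438.
mt-Co1: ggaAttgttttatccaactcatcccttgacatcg
Gm29216: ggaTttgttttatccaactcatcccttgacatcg
mt-Nd3: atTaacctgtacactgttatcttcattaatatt
Gm28438: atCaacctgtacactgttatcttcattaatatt

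The reads were 75 bases long, and only pairs that mapped to 1 place were counted. The share of 75-base windows of a member that also stand in another annotated transcript was 99.5% for mt-Co2, 99.5% for mt-Atp6, 99.9% for mt-Co3, 97.8% for mt-Nd3 and 98.7% for mt-Nd4l. It was 61.5% for mt-Nd4 and 39.8% for mt-Co1, which lie partly inside the stretch, 5.7% for mt-Nd2, 1.7% for mt-Nd5, and 0% for mt-Nd1, mt-Nd6, mt-Cytb, mt-Atp8 and both rRNAs. Only annotated transcripts were searched, so mt-Atp8, which lies between mt-Co2 and mt-Atp6 but is missing from the annotated copies, may be copied as well. In all, 11 members lie wholly inside the stretch.

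The counts followed these boundaries. On a scale of CPM (counts scaled to the total of the library) per kilobase of gene, mt-Co1 had a mean of 6537 over the 12 libraries and mt-Co2, which encodes a partner subunit of the same enzyme, had 12.9. Inside the stretch the mean levels per kilobase were 17.6 for mt-Atp8, 14.5 for mt-Atp6, 14.1 for mt-Co3, 2.94 for mt-Nd3 and 1.90 for mt-Nd4l. Outside it they were 3020 for mt-Nd1, 2419 for mt-Cytb, 491 for mt-Nd2, 334 for mt-Nd6 and 267 for mt-Nd5, with 166 for mt-Nd4 at the edge. mt-Ts1, a minus-strand serine tRNA inside the stretch, was higher than these neighbours at 92.4. According to the methods only uniquely mapped pairs were used, so a pair that fits both places equally well would not be counted. No level of a mitochondrial transcript is therefore read from the values inside the stretch, and no order of abundance is drawn between members inside and outside it. Outside the stretch the rRNAs were the highest members despite the depletion, with means of 92144 per kilobase for mt-Rnr2 (16S) and 16566 for mt-Rnr1 (12S).

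**Figure D1:**
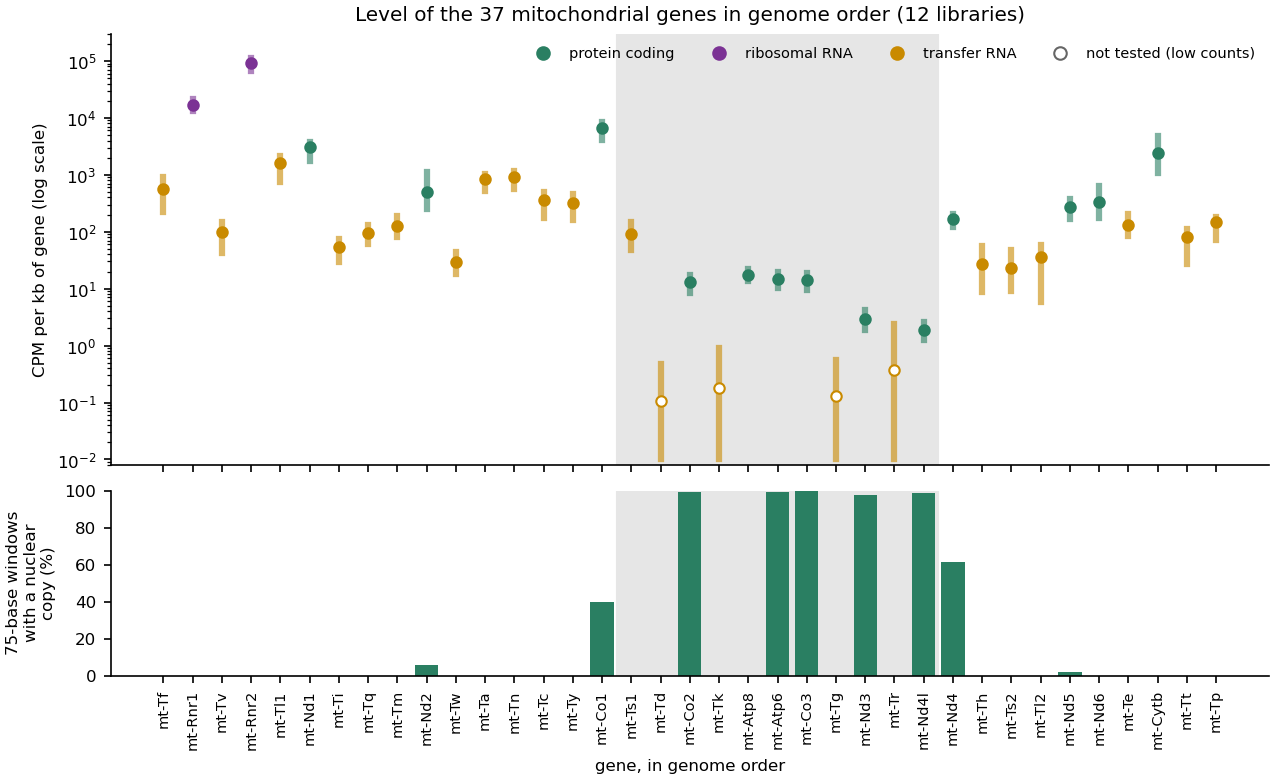
Upper panel: CPM per kilobase (log scale) of the 37 mitochondrial genes in genome order, with the point at the mean of the 12 libraries and the bar from the lowest to the highest library (values under 0.01 are drawn at 0.01), and the grey band over the 11 members wholly inside the copied stretch. Lower panel: percent of 75-base windows of a gene that also occur in another annotated transcript, drawn for genes of at least 75 bases; the mRNAs inside the band sit at 1.90 to 17.6 CPM per kilobase in the upper panel and, but for mt-Atp8, at 97.8% to 99.9% in the lower one.

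The tRNA genes are 59 to 75 bases long, so at most 1 read fits inside such a gene and a counted pair can come from a longer RNA that contains the tRNA. Mature tRNAs and precursors cannot be told apart in these counts. Among the tRNA genes outside the copied stretch, mt-Tl1 (leucine) had the highest mean count, with 2955 to 9862 counts per library. Inside it, 4 of the 22 tRNA genes, mt-Td, mt-Tk, mt-Tg and mt-Tr, had 0 to 8 counts and were not tested. The sequences of the 4 tRNAs with the largest group differences and of mt-Tf, which differed between the lines, are shown from the GENCODE M21 transcripts, 5′ to 3′, with capitals on bases that the annotation assigns to a neighbouring gene as well. mt-Th (histidine), mt-Ts2 (serine) and mt-Tl2 (leucine) lie side by side at chrM:11546-11741 between mt-Nd4 and mt-Nd5, mt-Tt (threonine) lies after mt-Cytb at chrM:15289-15355, and mt-Tf (phenylalanine) opens the numbering at chrM:1-68. All 5 are on the plus strand.
mt-Th: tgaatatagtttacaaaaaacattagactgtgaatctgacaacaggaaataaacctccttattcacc
mt-Ts2: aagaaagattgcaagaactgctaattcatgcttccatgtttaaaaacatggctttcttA
mt-Tl2: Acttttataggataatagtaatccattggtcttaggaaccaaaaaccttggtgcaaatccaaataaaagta
mt-Tt: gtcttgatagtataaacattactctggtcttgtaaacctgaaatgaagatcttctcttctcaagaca
mt-Tf: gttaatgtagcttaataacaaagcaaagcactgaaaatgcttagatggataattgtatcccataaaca

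Libraries held 29837255 to 61809316 counts. Tfeb and Tfe3 were lower in DKO than in Null control cells, by −1.95 ± 0.16 and −1.47 ± 0.12 on the log2 scale (difference ± standard error (SE)), but their transcripts were still present. The titles of the 3 DKO etoposide libraries leave out the word DKO and put MEFs, the usual short form for mouse embryonic fibroblasts, beside RAW264.7, while their other labels give the macrophage line and the double knockout. After etoposide Tfeb and Tfe3 were lower in these libraries than in Null cells by −0.79 ± 0.16 and −1.43 ± 0.12. Tfeb itself fell with etoposide in Null cells (−1.15 ± 0.16), and its level in DKO cells ran from 3.14 to 5.25 CPM without the drug and from 4.27 to 4.44 CPM with it. All 8 macrophage markers passed the filter on low counts, whereas of 8 fibroblast markers only Pdgfrb and Pdgfra did, at no more than 1.38 and 0.471 CPM in any library. The 6 other fibroblast markers, collagen genes among them, stayed at or below 0.135 CPM. Of the members, 33 passed the same filter: the 13 mRNAs, both rRNAs and 18 tRNAs.

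Most counts of mitochondrial transcripts came from the rRNAs. The 37 members held 14.1%, 17.0% and 18.3% of the counts in the Null control libraries and 21.7%, 19.4% and 21.3% in the Null etoposide libraries. In DKO cells the shares were 17.5%, 16.8% and 16.6% in control and 17.0%, 18.1% and 17.2% after etoposide. The Null etoposide libraries stood above all 9 others. Group means were 16.5% ± 2.14 (SD, n = 3), 20.8% ± 1.22, 17.0% ± 0.447 and 17.4% ± 0.578 in Null control, Null etoposide, DKO control and DKO etoposide.

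The rRNAs, mt-Rnr1 and mt-Rnr2, held 14.8% ± 2.50, 19.1% ± 1.06, 15.2% ± 1.11 and 15.6% ± 0.835 of the counts in the same order (SD, n = 3 each). The 13 mRNAs held 1.61% ± 0.362, 1.71% ± 0.166, 1.74% ± 0.658 and 1.80% ± 0.346, and these groups overlapped in every comparison. The tRNAs held only 0.0375% ± 0.00286, 0.0479% ± 0.00309, 0.0289% ± 0.00282 and 0.0424% ± 0.00236, yet here the control and etoposide libraries did not overlap in either line. Counting error was small beside this spread: the smallest library, Null control replicate 1, had a tRNA share of 0.0355% with a 95% Wilson interval of 0.0348% to 0.0362%, which covers counting error only. The part of the RNA isolation kit in these shares was not tested.

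**Figure D2:**
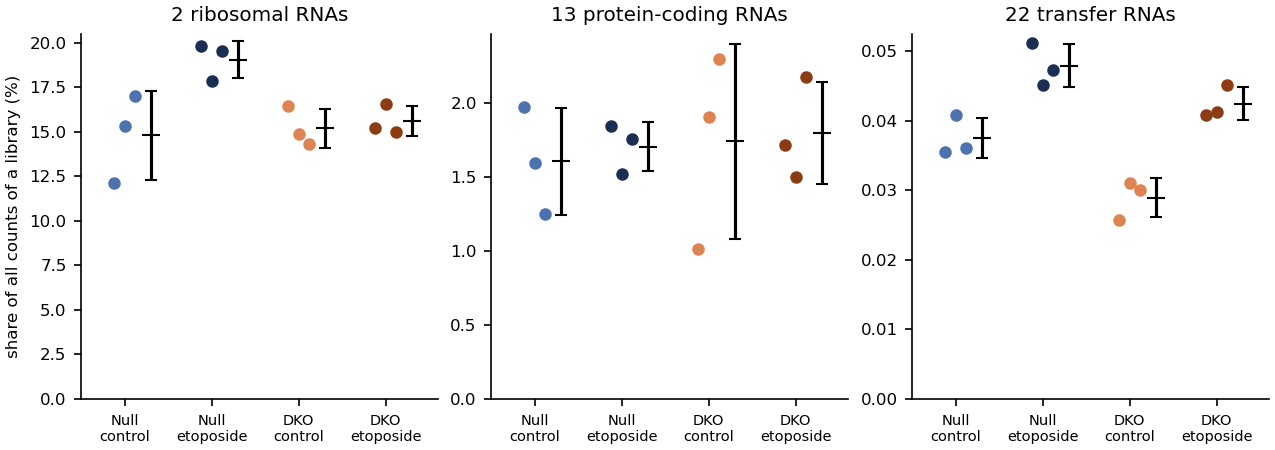
Share of all counts of a library (percent, axis from 0) held by the 2 rRNAs, the 13 mRNAs and the 22 tRNAs in each of the 12 libraries; points are libraries and the bar beside them is the group mean with its SD. The rRNA share is highest in the 3 Null etoposide libraries (17.8% to 19.8%), the mRNA shares overlap between all groups, and the tRNA share is higher after etoposide in both lines.

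Shares were tested by exact two-sided permutation of labels within strata, and p-values were adjusted over 8 tests. The tRNA share was higher after etoposide by 0.0120 percentage points on average over the lines (exact p = 0.005, the smallest that 400 arrangements can give, adjusted p = 0.04), in 6 of 6 etoposide libraries against the controls of their line. It was lower in DKO than in Null cells by 0.00700 points (exact p = 0.01, adjusted p = 0.04), and this adjusted p was 0.06 without Null etoposide replicate 1, Null etoposide replicate 3 or DKO etoposide replicate 2. The lines did not overlap in control but overlapped after etoposide (exact p = 0.2). The share of all members was 2.40 points higher after etoposide (exact p = 0.02, adjusted p = 0.0533) and that of the rRNAs 2.31 points higher (exact p = 0.04, adjusted p = 0.08), neither of which passed. Without DKO control replicate 1 both passed, at 2.53 and 2.62 points (exact permutation, adjusted p = 0.02), and without DKO etoposide replicate 1 the share of all members passed at 2.51 points (exact permutation, adjusted p = 0.04). The mRNA share differed by 0.0780 points with etoposide (exact p = 0.745) and by 0.113 points between the lines (exact p = 0.62), and single libraries set the sign of both. The etoposide value became −0.103 points when DKO control replicate 1 was left out, −0.0107 with Null control replicate 3 left out and −0.0172 with DKO etoposide replicate 3 left out, and the line value was −0.0264 without DKO control replicate 3. Within a line, 3 libraries against 3 cannot give an exact p under 0.10, and that value was reached for the rRNA share in Null cells (4.24 points) but not in DKO cells (0.389 points, exact p = 0.5). The difference between these responses, −3.85 points, was not tested.

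Gene by gene, the mRNAs did not pass the test in any contrast of the main fit of all 12 libraries, and their spread between control libraries was wide. mt-Cytb, the core subunit of complex III, had 3214, 1857 and 1247 CPM in Null control libraries and 1383, 4028 and 5569 CPM in DKO control libraries. With etoposide the Null libraries had 2287, 1729 and 2166 CPM and the DKO libraries 2951, 2298 and 4479 CPM. Each etoposide group thus lay within the range of its controls, and every DKO etoposide library stood above every Null etoposide library. The log2 difference of DKO minus Null after etoposide was 0.61 ± 0.46 (SE) with a limma-trend adjusted p of 0.345. In control it was 0.69 ± 0.46 (limma-trend adjusted p = 0.369), and mt-Cytb passed there without DKO control replicate 1 (1.26).

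mt-Co1, the catalytic core of complex IV, had 10924, 10003 and 8007 CPM in Null control and 11115, 9236 and 10174 CPM in Null etoposide libraries, against 6352, 11433 and 12894 CPM in DKO control and 9847, 8759 and 12454 CPM in DKO etoposide libraries. All 4 groups overlapped, and the response to etoposide was 0.09 ± 0.23 in Null and 0.07 ± 0.23 in DKO cells (log2 difference ± SE). Similar overlap was seen for the complex I subunits mt-Nd1 (1698 to 3564 CPM over all libraries), mt-Nd2 (262 to 1158 CPM), mt-Nd5 (300 to 677 CPM) and mt-Nd6 (88.8 to 326 CPM). mt-Nd6 is the only mRNA encoded on the other strand, and the strand setting of the counting was not stated. Across the table, genes lying within an abundant gene on the opposite strand had a median of 0.806 times its read density (88 genes), against 0.432 for genes on the same strand (224 genes), so counts of mt-Nd6 cannot be told apart from reads of the opposite strand.

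Of the mRNAs, mt-Nd4 came closest to a call. It had 212, 193 and 168 CPM in Null control and 280, 207 and 266 CPM in Null etoposide libraries, which overlapped, and its log2 difference was 0.39 ± 0.15 (SE; limma-trend adjusted p = 0.0577). It passed in 6 of 22 alternative analyses, among them those without Null control replicate 1, Null etoposide replicate 2, DKO control replicate 1 or DKO control replicate 3, with differences of 0.37 to 0.52. In DKO cells the difference was 0.08 ± 0.15. Between the lines in control mt-Nd4 passed without DKO control replicate 1 (0.41). The number of mRNAs called was 0 of 13 in each of the 5 contrasts by limma-trend, where 39.6% of all genes tested were called with etoposide in Null cells, 39.3% with etoposide in DKO cells, 19.3% and 33.6% between the lines in control and after etoposide, and 9.45% in the interaction. Of these 13, 6 lie inside the copied stretch, where no level of the mitochondrial transcript is read, so that 0 of the other 7 were called. At an unadjusted p under 0.05 the count of the 13 was 1, 0, 1, 1 and 0 in the same order, and edgeR and DESeq2 also called 0 of 13. Every gene called also has an unadjusted p under 0.05, so at least the shares above passed that threshold among all genes. The standard errors of the members named here were 0.14 to 0.46 in comparisons of 2 groups, and larger in the interaction. A change by the 0.39 log2 units of mt-Nd4 could thus go uncalled.

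The 6 mRNAs inside the copied stretch were likewise not called: mt-Co2 had 5.77 to 11.7 CPM, mt-Atp6 7.05 to 13.2 CPM, mt-Co3 7.53 to 15.0 CPM, mt-Atp8 2.73 to 4.45 CPM, mt-Nd3 0.664 to 1.45 CPM and mt-Nd4l 0.376 to 0.762 CPM. For 4 of them the copy held more of the uniquely placed reads: Gm28661 had 46.3 to 84.0 CPM, Gm10925 77.7 to 105 CPM, Gm28437 76.3 to 123 CPM and Gm28438 10.9 to 23.2 CPM. mt-Atp6 passed between the lines after etoposide when only the groups compared were fitted (0.35) or without Null etoposide replicate 3 (0.47). Gm28661 rose with etoposide in Null (0.41 ± 0.10, limma-trend adjusted p = 0.00603) and in DKO cells (0.41 ± 0.10, limma-trend adjusted p = 0.00642). Gm29216, the copy of the end of mt-Co1, had 116 to 188 CPM. It rose with etoposide in Null cells (0.40 ± 0.10, limma-trend adjusted p = 0.00880), reached 0.23 ± 0.10 in DKO cells (limma-trend adjusted p = 0.0998), and after etoposide was lower in DKO cells than in Null cells (−0.35 ± 0.10, limma-trend adjusted p = 0.0202). When the counts of each member were summed with those of its copy, an analysis chosen after the data were seen, mt-Co2 with Gm28661 was higher with etoposide by 0.39 in Null (limma-trend adjusted p = 0.00996) and 0.38 in DKO cells (limma-trend adjusted p = 0.0104), and the other 6 pairs were not called in any contrast. Which of the loci gave these reads was not tested.

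Neither rRNA was called in any contrast by limma-trend. mt-Rnr2 had 104298, 137632 and 155788 CPM in Null control and 175924, 157998 and 172851 CPM in Null etoposide libraries, without overlap. In DKO cells it had 152126, 138824 and 131957 CPM in control and 136106, 150577 and 135178 CPM after etoposide, with overlap. The log2 difference was 0.37 ± 0.14 in Null cells (limma-trend adjusted p = 0.0560) and 0.00 ± 0.14 in DKO cells, and the interaction was −0.37 ± 0.20 (limma-trend adjusted p = 0.334). The Null difference just missed the threshold and passed it in 5 of 22 alternatives, including DESeq2 and the analyses without DKO control replicate 1 (0.35) or Null control replicate 3 (0.49). After etoposide the difference of DKO minus Null was −0.26 ± 0.14 (limma-trend adjusted p = 0.175), and it passed when only the groups compared were fitted (−0.27).

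mt-Rnr1 had 12820, 14861 and 13284 CPM in Null control, 18656, 14631 and 16158 CPM in Null etoposide libraries, and 14512, 17999 and 20360 CPM in DKO control and 14926, 14416 and 17218 CPM in DKO etoposide libraries. It was 0.36 ± 0.14 higher in DKO than in Null control cells (log2; limma-trend adjusted p = 0.0964), with overlap, and passed without DKO control replicate 1 (0.47). At an unadjusted p under 0.05 an rRNA passed in 3 contrasts: mt-Rnr2 with etoposide in Null cells, and mt-Rnr1 between the lines in control and in the interaction (−0.44 ± 0.19). At least the shares called, 39.6%, 19.3% and 9.45% of all genes tested, passed that threshold in these contrasts. How much rRNA a library keeps depends also on the depletion step, whose efficiency on the mitochondrial rRNAs was not given in the sources used here, and its part in these values was not tested.

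**Figure D3:**
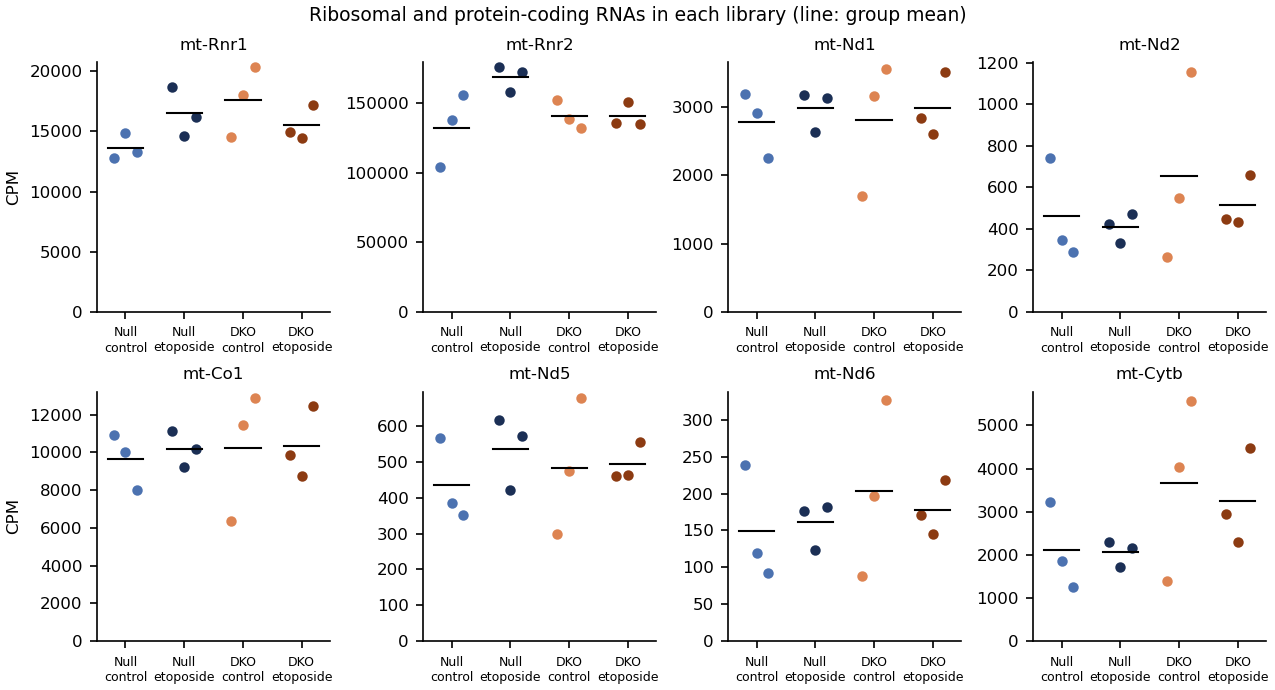
CPM (linear axis from 0) of both rRNAs and of 6 mRNAs that lie outside the copied stretch or, for mt-Co1, mostly outside it, 1 point per library and a line at the mean of the 3 libraries of a group. mt-Rnr2 separates Null etoposide from Null control libraries, and mt-Nd2, mt-Nd6 and mt-Cytb spread most within the control groups.

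The spread was not the same in every group. The median coefficient of variation of the 13 mRNAs between libraries was 21.4% in Null control and 34.3% in DKO control cells, against 15.4% and 16.5% after etoposide. For the tRNA genes tested it was 22.1% and 31.1% in control, against 9.82% and 9.28% after etoposide. The 4 groups share 1 estimate of the spread per gene, so the control libraries also enter the standard errors of the comparison after etoposide. Within the control groups the mRNA share went against the rRNA share: Null control replicate 1 had the highest mRNA share (1.98%) and the lowest rRNA share (12.1%) of its group, and so had DKO control replicate 3 (2.30% and 14.3%). These were also the smallest libraries, with 29837255 and 34918422 counts. DKO control replicate 1, with 53963431 counts, had the lowest mRNA share of all (1.02%) and the highest rRNA share of its group (16.4%). Whether depth has a part in this was not tested.

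All members called by limma-trend were tRNA genes. With etoposide, 8 of the 18 tested rose in Null cells, where 20.9% of all genes tested were called higher, and 10 of 18 rose in DKO cells, where 20.2% were. None fell, where 18.7% and 19.1% of all genes tested were called lower, and the median log2 difference of the 18 was 0.46 in Null and 0.56 in DKO cells, beside 0.03 for all genes in both. The 8 were mt-Ti, mt-Ta, mt-Tn, mt-Ty, mt-Th, mt-Ts2, mt-Te and mt-Tt, and the DKO call added mt-Tc and mt-Tl2 to these. The tRNA genes form 2 runs among them: mt-Ta, mt-Tn, mt-Tc and mt-Ty lie side by side on the minus strand at chrM:5018-5326 between mt-Nd2 and mt-Co1, and mt-Th, mt-Ts2 and mt-Tl2 lie side by side on the plus strand. Neighbours in a run can share read pairs and are not independent.

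mt-Th, the histidine tRNA, had 0.875, 1.45 and 1.79 CPM in Null control and 3.36, 3.13 and 3.80 CPM in Null etoposide libraries. In DKO cells it had 0.770, 0.575 and 0.793 CPM in control and 1.47, 1.92 and 1.69 CPM after etoposide. All etoposide libraries lay above the controls of their line, and every DKO library lay below every Null library of the same treatment. It rose with etoposide by 1.34 ± 0.24 on the log2 scale in Null (limma-trend adjusted p = 0.000695) and by 1.19 ± 0.24 in DKO cells (limma-trend adjusted p = 0.00160). These values rest on 26 to 200 counts per library.

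mt-Ts2, a serine tRNA, had 0.584, 1.13 and 1.17 CPM in Null control, 2.66, 2.46 and 2.78 CPM in Null etoposide libraries, and 0.526, 0.592 and 0.823 CPM in DKO control and 1.16, 1.35 and 1.27 CPM in DKO etoposide libraries (18 to 158 counts). The etoposide groups stood clear of their controls and of each other, while the control groups overlapped. It rose by 1.45 ± 0.25 in Null cells (limma-trend adjusted p = 0.000514) and by 0.92 ± 0.25 in DKO cells (limma-trend adjusted p = 0.0107). The difference between the responses of the 2 lines did not pass the test (−0.54 ± 0.35, limma-trend adjusted p = 0.458), whose 95% interval ran from −1.30 to 0.23.

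mt-Tl2, the leucine tRNA next in line, had 0.422, 2.93 and 2.60 CPM in Null control and 4.22, 3.18 and 3.76 CPM in Null etoposide libraries, and 1.86, 0.754 and 0.671 CPM in DKO control and 2.69, 3.67 and 3.52 CPM in DKO etoposide libraries. Controls were far apart in both lines but did not overlap with the etoposide libraries. Its difference was 1.67 ± 0.58 in DKO cells (limma-trend adjusted p = 0.0362), a call lost in 9 of 22 alternatives (adjusted p up to 0.117 by limma-trend), among them those without DKO control replicates 2 or 3, Null etoposide replicates 2 or 3 or any 1 of the DKO etoposide libraries. The difference was 1.27 ± 0.58 in Null cells (limma-trend adjusted p = 0.103). It passed in Null cells without Null control replicate 2 (1.73).

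mt-Tt, the threonine tRNA, had 4.28, 3.57 and 3.40 CPM in Null control, 7.18, 6.14 and 7.37 CPM in Null etoposide libraries, and 1.84, 4.63 and 4.42 CPM in DKO control and 7.18, 7.47 and 7.37 CPM in DKO etoposide libraries. The etoposide groups were alike in level and both above all controls. It rose by 0.87 ± 0.27 in Null (limma-trend adjusted p = 0.0225) and by 1.11 ± 0.27 in DKO cells (limma-trend adjusted p = 0.00581). The Null call was lost without Null control replicate 2, Null control replicate 3, Null etoposide replicate 1 or Null etoposide replicate 3 (limma-trend adjusted p up to 0.0731).

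The limit given for mt-Nd6 holds also for the tRNA genes on the minus strand, mt-Ta, mt-Tn, mt-Tc, mt-Ty and mt-Te among them, and, as both strands are transcribed, for those on the plus strand, mt-Th, mt-Ts2 and mt-Tl2 included: their counts cannot be told apart from reads of the opposite strand. mt-Ta (alanine) had 36.2, 58.6 and 61.7 CPM in Null control, 70.0, 69.6 and 67.2 CPM in Null etoposide libraries, and 48.6, 42.0 and 40.5 CPM in DKO control and 63.0, 67.3 and 69.3 CPM in DKO etoposide libraries. mt-Tn (asparagine) had 40.2, 65.1 and 70.7 CPM, 81.1, 81.3 and 77.6 CPM, 58.1, 46.9 and 43.6 CPM and 72.5, 80.2 and 76.4 CPM in the same order. mt-Tc (cysteine) spanned 11.3 to 24.5 CPM in the 6 control libraries and 24.9 to 33.0 CPM in the 6 etoposide libraries. For mt-Ta, mt-Tn and mt-Tc no etoposide library fell below a control library of its line, and Null control replicate 1 was the lowest library for mt-Ta and mt-Tn.

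mt-Ta rose in DKO cells by 0.61 ± 0.16 (limma-trend adjusted p = 0.00925) and mt-Tn by 0.63 ± 0.17 (limma-trend adjusted p = 0.0118), and neither call was lost in the 22 alternatives. Their calls in Null cells, 0.44 ± 0.16 and 0.49 ± 0.17, were close to the threshold (limma-trend adjusted p = 0.0452 and 0.0416) and were lost in 13 and 12 of the alternatives, edgeR and the analyses without Null control replicate 1, DKO control replicate 2 or any 1 of the 6 etoposide libraries among them, with differences of 0.20 to 0.58 and 0.24 to 0.64. mt-Tc rose in DKO cells (0.76 ± 0.26, limma-trend adjusted p = 0.0372, lost in 9 of 22 alternatives, those without DKO control replicates 2 or 3, Null etoposide replicates 2 or 3 and DKO etoposide replicates 1 or 2 among them) and reached 0.69 ± 0.26 in Null cells (limma-trend adjusted p = 0.0525). mt-Ty, of the same run, rose by 0.73 ± 0.25 in Null cells (limma-trend adjusted p = 0.0364, lost in 7 of 22 alternatives). In DKO cells it rose by 0.80 ± 0.25 (limma-trend adjusted p = 0.0242, lost in 3 of 22). Outside these runs, mt-Te (glutamate), chosen after its values were seen, rose by 0.70 ± 0.14 in Null and 0.49 ± 0.14 in DKO cells, and mt-Ti (isoleucine), chosen likewise, by 0.60 ± 0.16 and 0.66 ± 0.16. The calls of mt-Ti in both lines and of mt-Te in Null cells held in all 22 alternatives, and that of mt-Te in DKO cells was lost without DKO control replicate 2 or DKO etoposide replicate 2. mt-Tl1, which had the highest mean count of the tRNA genes outside the copied stretch, was not called in either line (0.22 ± 0.28 and 0.50 ± 0.28).

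The number called depended on single libraries. With etoposide in Null cells it was 5 without DKO control replicate 2, 4 without Null etoposide replicate 1, 4 without Null etoposide replicate 3 and 5 without DKO etoposide replicate 1, in place of 8. In DKO cells it was 6 without DKO etoposide replicate 2, in place of 10. Of the tRNA genes tested, 10 of 18 had every etoposide library above every control library in Null cells, and 10 of 18 in DKO cells, where 28.1% and 24.2% of all genes tested did so.

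**Figure D4:**
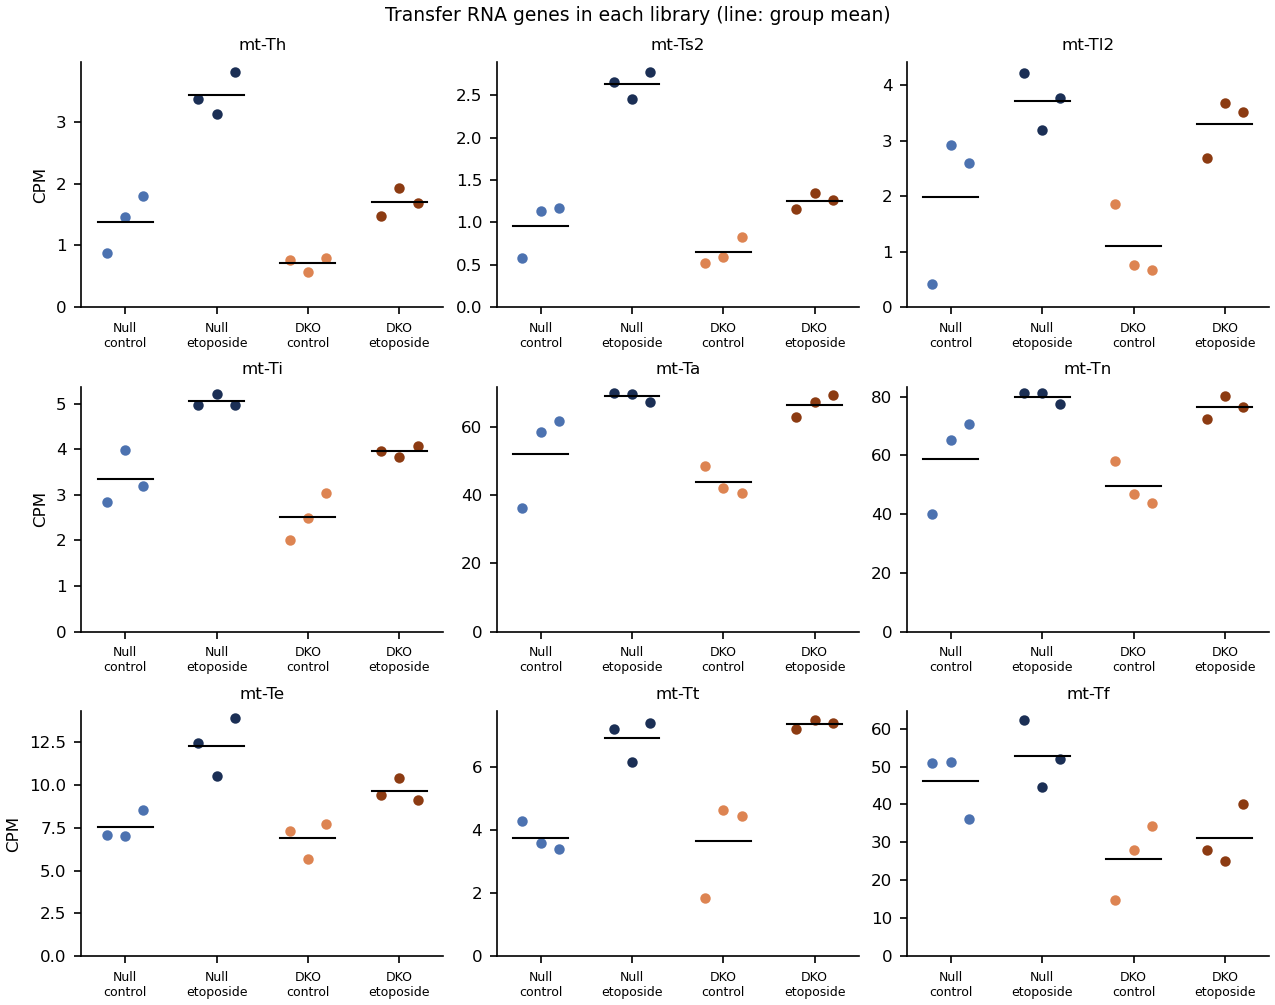
CPM (linear axis from 0) of 9 tRNA genes (mt-Th, mt-Ts2, mt-Tl2, mt-Ti, mt-Ta, mt-Tn, mt-Te, mt-Tt and mt-Tf) in each library, 1 point per library and a line at the mean of the 3 libraries of a group. The etoposide points lie above the control points of their line for all of these but mt-Tf, and for mt-Tf and mt-Th the DKO points lie below the Null points of the same treatment.

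Between the lines, mt-Tf and mt-Th were lower in DKO than in Null control cells, 2 of the 18 tRNA genes tested, where 8.39% of all genes tested were called lower. After etoposide mt-Tf, mt-Th and mt-Ts2 were lower, 3 of 18, where 17.8% of all genes were. Both counts were near these shares, so they do not set the tRNA genes apart from genes in general. No tRNA gene was called higher in DKO cells, where 10.9% and 15.9% of all genes were. mt-Tf, the phenylalanine tRNA that precedes mt-Rnr1, had 50.9, 51.1 and 36.2 CPM in Null control and 14.9, 28.0 and 34.4 CPM in DKO control libraries. After etoposide it had 62.2, 44.5 and 52.0 CPM in Null libraries and 28.0, 25.0 and 40.1 CPM in DKO libraries. The lines did not overlap in either state. Of the 18 tRNA genes, 3 had every DKO library below every Null library in control and 8 after etoposide, where 13.3% and 28.1% of all genes tested did so.

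mt-Tf was lower in DKO cells by −0.90 ± 0.28 in control (log2; limma-trend adjusted p = 0.0379) and by −0.78 ± 0.28 after etoposide (limma-trend adjusted p = 0.0459), and each of these calls was lost in 10 of 22 alternatives. The control call was lost without Null control replicates 1 or 2, DKO control replicates 1 or 2, Null etoposide replicates 2 or 3 or DKO etoposide replicate 1, and over the alternatives the difference ran from −1.15 to −0.57. The call after etoposide was lost without Null control replicate 2, DKO control replicate 2, any 1 of the Null etoposide libraries or DKO etoposide replicates 1 or 2, with differences of −0.98 to −0.64. mt-Tf was not called with etoposide (0.20 ± 0.28 in Null, 0.32 ± 0.28 in DKO cells). mt-Th was lower by −0.85 ± 0.24 in control (limma-trend adjusted p = 0.0241) and by −0.99 ± 0.24 after etoposide (limma-trend adjusted p = 0.00619). mt-Ts2 was lower by −1.03 ± 0.25 after etoposide (limma-trend adjusted p = 0.00652) and by −0.50 ± 0.25 in control, which did not pass. The mt-Th and mt-Ts2 calls after etoposide held in all 22 alternatives, while the mt-Th call in control cells was lost without Null control replicate 2, Null control replicate 3 or DKO control replicate 2, and when only the groups compared were fitted (limma-trend adjusted p up to 0.127).

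The count of 2 in control cells also depended on single libraries. Leaving out Null control replicate 2 gave 0. It was 1 when Null control replicate 3, DKO control replicate 2, Null etoposide replicate 2, Null etoposide replicate 3 or DKO etoposide replicate 1 was left out, 4 without DKO control replicate 1, and 5 without Null control replicate 1 or DKO control replicate 3. The count of 3 after etoposide was 5 without DKO control replicate 1, and larger still when only the groups compared were fitted, as given at the end. No member was called in the interaction, where 9.45% of all genes tested were. At an unadjusted p under 0.05 only mt-Rnr1 passed, where at least those 9.45% of all genes did, and edgeR and DESeq2 also called 0. Without Null control replicate 1, mt-Ta was called (0.41).

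**Figure D5:**
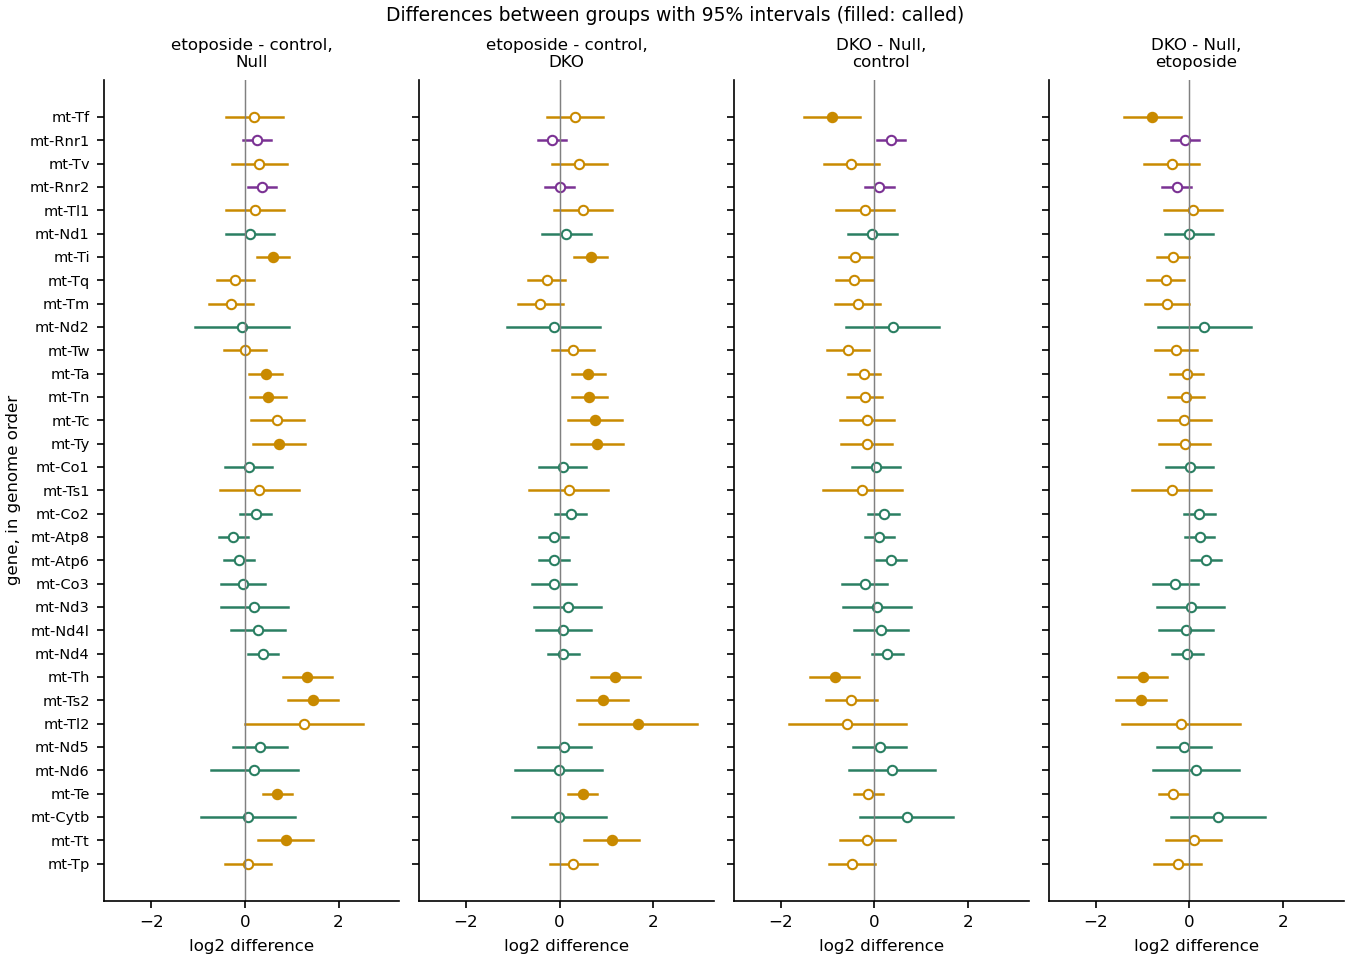
Log2 difference (point) with its 95% interval (line) for the 33 tested members in genome order, in 4 comparisons; filled points passed limma-trend with Benjamini-Hochberg adjustment over all genes tested, and colours are green for mRNAs, purple for rRNAs and ochre for tRNAs. Filled points are all tRNA genes, to the right of 0 with etoposide and to the left of 0 for DKO against Null.

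When the same counts were scaled to the sum of the 13 mRNAs of each library, not its total, mt-Tf was lower in DKO cells. It had 2.66, 3.23 and 2.91 counts per 1000 mRNA counts in Null control and 3.44, 3.02 and 3.06 in Null etoposide libraries, against 1.44, 1.39 and 1.40 in DKO control and 1.65, 1.67 and 1.81 in DKO etoposide libraries. On this scale the spread within groups was small and every DKO library lay below every Null library. The difference was −1.05 ± 0.23 in control (log2; limma-trend adjusted p = 0.0101) and −0.89 ± 0.23 after etoposide (limma-trend adjusted p = 0.0205), where 3.09% and 7.16% of all genes tested were called lower. mt-Tf was the only member called in either contrast, 1 of 33 tested, which is near 3.09% in control and below 7.16% after etoposide. Its control call was lost without Null control replicate 2 (−0.98) or DKO control replicate 2 (−1.04). The call after etoposide was lost without any 1 of the 6 etoposide libraries, with differences of −0.83 to −0.93, and with the total of all members as the scale (−0.57).

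Relative to the mRNAs, mt-Ts2 rose with etoposide in Null cells (1.37 ± 0.38, limma-trend adjusted p = 0.0254) and mt-Tt in DKO cells (1.07 ± 0.27, limma-trend adjusted p = 0.0146), 1 member each where 6.06% and 4.73% of all genes tested were called higher. The mt-Ts2 call was lost without Null control replicate 1 (0.93), Null control replicate 2 (1.49) or any 1 of the Null etoposide libraries (1.33 to 1.42), and the mt-Tt call without DKO etoposide replicate 1 (1.05) or replicate 2 (0.93). mt-Tt had 0.224, 0.225 and 0.273 counts per 1000 mRNA counts in Null control, 0.397, 0.417 and 0.434 in Null etoposide, 0.179, 0.230 and 0.180 in DKO control and 0.423, 0.498 and 0.333 in DKO etoposide libraries. With etoposide mt-Th did not pass on this scale (1.25 ± 0.42 in Null, 1.13 ± 0.42 in DKO cells). Between the lines after etoposide neither mt-Th nor mt-Ts2 passed on it (−1.10 ± 0.42 and −1.13 ± 0.38, limma-trend adjusted p = 0.130 and 0.0738). mt-Rnr2 ranged from 5456 to 12513 counts per 1000 mRNA counts in Null control and from 5384 to 14755 in DKO control libraries, and was not called (0.28 ± 0.36 and −0.05 ± 0.36). None was called in the interaction by limma-trend (0 also at an unadjusted p under 0.05), where 1.18% of all genes tested were called and at least as many passed the unadjusted threshold.

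Nuclear genes that make and process these RNAs were called in both directions with etoposide, as were genes in general: of all genes tested 20.9% were called higher and 18.7% lower in Null cells, and 20.2% and 19.1% in DKO cells. Of 13 genes of mitochondrial transcription, 2 rose and 2 fell in Null cells and 3 rose and 2 fell in DKO cells, near these shares. Polrmt, the polymerase, rose by 0.33 ± 0.09 and 0.26 ± 0.09, and Tfb1m, which methylates the 12S rRNA, fell by 1.00 ± 0.11 and 0.97 ± 0.11 on the log2 scale. Tfb1m had 20.5, 20.9 and 21.9 CPM in Null control and 9.81, 11.3 and 10.5 CPM in Null etoposide libraries. Tfam, which packages the genome and starts its transcription, fell in DKO cells (−0.42 ± 0.16) and after etoposide was lower in DKO cells than in Null cells (−0.54 ± 0.16). Tfb2m was not called in any contrast (0.20 ± 0.11 and 0.22 ± 0.11 with etoposide), and Tefm, an elongation factor, rose in DKO cells (0.63 ± 0.20).

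Of 27 genes of mitochondrial RNA processing and decay, 4 rose and 1 fell in Null cells, where 20.9% and 18.7% of all genes tested did, and 11 rose and 0 fell in DKO cells, where 20.2% and 19.1% did. Elac2, which trims the 3′ ends of tRNAs, rose in DKO cells by 0.56 ± 0.11, and Rpusd3, a mitochondrial pseudouridine synthase, which was lower in DKO than in Null control cells (−0.67 ± 0.14), by 0.72 ± 0.14. Lrpprc, which stabilises mitochondrial mRNAs, fell in Null cells (−0.40 ± 0.13) and its partner Slirp was not called in any contrast. The helicase Dhx30 was higher in DKO than in Null cells in both states (0.73 ± 0.06 and 0.80 ± 0.06). Between the lines 3 of the 27 were higher and 1 lower in control, where 10.9% and 8.39% of all genes tested were, and 5 were higher and 0 lower after etoposide, where 15.9% and 17.8% were. Whether the 2 lines differ in these counts with etoposide was not tested.

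Of 18 genes of mitochondrial DNA replication, 2 rose and 3 fell with etoposide in Null cells and 2 rose and 5 fell in DKO cells, beside 20.9% and 18.7% of all genes tested in Null and 20.2% and 19.1% in DKO cells. In DKO cells the exonuclease Mgme1 fell (−0.61 ± 0.08) and the nuclease Dna2 fell (−0.93 ± 0.17). The polymerase Polg after etoposide was lower in DKO cells than in Null cells (−0.49 ± 0.12). Of 10 regulators of mitochondrial biogenesis tested, 3 rose and 3 fell in Null cells and 1 rose and 4 fell in DKO cells. Nrf1, a transcription factor for nuclear genes of the respiratory chain, fell in both (−0.91 ± 0.07 and −1.06 ± 0.07). Most of the 75 nuclear subunits of the respiratory chain, which are built into the same complexes as the 13 mitochondrial ones, were not called: 3 rose and 6 fell in Null cells and 10 rose and 1 fell in DKO cells, with a median of 0.02 and 0.14 on the log2 scale beside 0.03 for all genes. Of these, the complex I subunit Ndufb6 rose in both lines (0.79 ± 0.20 and 0.75 ± 0.20).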

How the data were processed

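The deposited values were raw counts per gene, without normalization, for 12 libraries. According to the study's methods the authors made stranded total RNA libraries with ribosomal depletion, aligned read pairs of 75 bases with HISAT2, discarded pairs with more than 1 mapping and counted the rest with HTSeq on a GENCODE annotation; the submitters' processing notes name featureCounts and mm10 instead. Groups came from the sample titles. Members and gene lists were chosen with earlier results of these data known. Symbols were matched for 99.4% of identifiers. The filterByExpr function (edgeR 4.0.16) kept 18066 genes. Counts scaled by trimmed mean of M values (factors 0.939 to 1.03) became log2 CPM with a prior count of 3 and entered limma-trend (limma 3.58.1, R 4.3.3) with robust empirical Bayes, 1 mean per group and all 12 libraries. A gene was called at a Benjamini-Hochberg adjusted p under 0.05 over all genes tested. Adjusted p-values are from this fit unless stated otherwise. The fits were tested on simulated data. Copies were found with blastn 2.17.0+ at 99% identity or more among annotated transcripts.

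All 13 mRNAs and both rRNAs were named, the 5 tRNAs with the highest counts, and up to 3 other called tRNAs a contrast by size of difference. Of each gene list up to 3 called genes a contrast were taken, besides fixed genes such as Polrmt and Tfam. Replicates differed by a median of 3.60 to 64.2 times the counting noise, so no pair was merged, which does not show that they came from separate cultures. Alternatives were DESeq2 1.42.0, edgeR, other scalings, no filter, a prior count of 1, fewer groups, a replicate block and leaving out each library.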

Additional observations from a re-analysis of the deposited data

Results flagged for a closer look

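No member passed the limma-trend test for a different etoposide response in the 2 lines. Of 160 nuclear genes in the lists examined beside them, 12 passed (7.50%), where 9.45% of all genes tested did. The values are the response of DKO minus that of Null cells on the log2 scale. Of genes acting on the mitochondrial genome or its RNA, the value was 0.34 for Tbrg4, −1.07 for Mgme1 (which rose in Null and fell in DKO cells) and −0.57 for Primpol (which fell in both). Of regulators of biogenesis it was −2.31 for Myc, whose level was at most 0.247 CPM in Null control and at least 7.48 CPM in DKO control libraries, and 0.78 for Ppargc1b. It was 0.43 for the complex I subunit Ndufb10 and 0.57 for the nuclear RNA Neat1, which had 235 to 255 CPM in DKO etoposide libraries and at most 177 CPM in the others. Among macrophage markers it was 0.45 for Spi1, −1.59 for Fcgr1 and 0.59 for Csf1r. Among fibroblast markers it was 1.09 for Pdgfrb and −1.52 for Pdgfra, which had 0 counts in every control library, so that its fitted value depends on the prior count and is no measure of size.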

How the results depend on the processing

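No result changed direction past the threshold under any alternative. Counts of members called with etoposide stayed between 6 and 10 in Null and between 8 and 11 in DKO cells over the other scalings, tools, filter, prior count, groups fitted and summed copies, against 8 and 10. In Null cells the replicate block gave 5. Between the lines in control cells the count of 2 became 4 with library size alone, 1 without a filter, 1 with the replicate block and 0 when only the groups compared were fitted. After etoposide the count of 3 became 10 when only the groups compared were fitted. The cause of these changes was not tested. Leaving out 1 library at a time gave 4 to 11 in Null and 6 to 12 in DKO cells with etoposide, 0 to 5 between the lines in control, 2 to 5 after etoposide and 0 to 1 in the interaction. Relative to the mRNA total, the count of 1 in each contrast became 5, 10, 2 and 4 when all members formed the total (etoposide in Null, etoposide in DKO, DKO against Null in control and after etoposide), and 0 in Null and 0 between the lines after etoposide with the replicate block. Leaving out 1 library gave 0 to 3, 0 to 10, 0 to 4 and 0 to 3 in that order. For shares, leaving out 1 library gave 1.82 to 2.86 points for all members and 1.63 to 2.86 points for rRNAs with etoposide, and −0.00768 to −0.00616 points for tRNAs between the lines. Replicate numbers did not pair the samples: deviations from group means of same-numbered libraries correlated from −0.54 to 0.39 (median −0.00296, 1 of 18 pairs over 0.1), so the replicate block is given only here. Depth limits mt-Th, mt-Ts2 and mt-Tl2, with 13 to 251 counts per library.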
